A study of Mus musculus with 4 samples.

Results

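The miR-466, miR-467, miR-669 and miR-297 families of mouse miRNAs come largely from 1 intron of the gene Sfmbt2, and their reads were followed through sperm small RNA of 4 libraries. A read belonged to the cluster when it was 18 nt or longer and every hairpin name in its deposited annotation was of these families. This took 114 of 2783 distinct miRNA sequences and 33 of 389 miRNA labels, with 8839 reads in all. A label is a hairpin name without its copy number, and a read that fits several hairpins keeps a joint label such as miR-467a/miR-467b. All mice were of the C57BL strain. The 2 control libraries came from mice left undisturbed apart from routine husbandry. The 2 Mdd libraries came from mice given unpredictable daily stressors such as restraint, isolation, noise, tilted or damp cages and altered light cycles, a treatment meant to make males depressive-like. The study looked for changes in the small RNA of sperm under this treatment. The labels name testis and testicular cells as the tissue, while the extraction protocol names sperm. The labels give no age and no number of mice per library. Since nothing in them says that the replicates came from different animals, the p-values below reflect only how far these libraries differ, and that spread may be technical.

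Sfmbt2 encodes a Polycomb-type chromatin protein and is imprinted in mouse, with expression from the paternal allele. Its intron carries a rodent-specific array of miRNA hairpins that arose by repeated duplication, known best from embryonic stem cells and placenta. A miRNA hairpin yields a strand from each side, called 5p and 3p, and a mature miRNA recognises targets mainly through its seed, bases 2 to 8 counted from the 5′ end. A start moved by 1 base therefore gives another seed.

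The most read sequence of each of the 8 labels with the most reads is given below 5′ to 3′, with the seed in capitals and T for U as in the deposited counts. They show how alike the members are outside the first bases.
miR-467a/miR-467b: tAAGTGCCtgcatgtatatgc
miR-467e: aTAAGTGTgagcatgtatatgt
miR-467c: tAAGTGCGtgcatgtatatgtgt
miR-669a/miR-669p: aGTTGTGTgtgcatgttcatgt
miR-669o: tAGTTGTGtgtgcatgtttatgt
miR-297c: aTGTATGTgtgcatgtacatgt
miR-467d: tAAGTGCGcgcatgtatatgc
miR-669l: aGTTGTGTgtgcatgtatatgt
A further 4 sequences were chosen after the values were seen, and the same capitals mark bases 2 to 8: the second start of miR-467e, which moves its seed by 1 base, the most read 3p sequence of the cluster, and, from RefSeq (GRCm38.p6), 2 mature miRNAs encoded elsewhere that share a seed with the most read labels.
miR-467e, second start: tAAGTGTGagcatgtatatgt
miR-669a/miR-669o, 3p arm: aCATAACAtacacacacacgta
mmu-miR-290a-3p: aAAGTGCCgcctagttttaagccc
mmu-miR-467h: aTAAGTGTgtgcatgtatatgt

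All 8 of the most read sequences hold the letters GCATGT after the seed. The motif was picked from these sequences, so its share in the cluster is a description with no test. Searched in the sense of the read, this motif was in 65 of the 114 sequences of the cluster (57.0%) and in 4 of the other 2669 miRNA sequences (0.150%). By reads it was present in 88.4% and 93.7% of the cluster in the first and second control library and in 93.2% and 86.0% in the first and second Mdd library. This order holds wherever 4 values follow one another. In all other miRNA reads it was present in at most 0.0617% in any library. Its reverse complement, ACATGC, was in none of the sequences of either set.

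In the GENCODE M21 annotation of GRCm38, Sfmbt2 lies at chr2:10370510-10595253 on the plus strand. Intron 10 of its first listed transcript, at chr2:10461473-10523944, is 62.472 kb long and holds 72 hairpins of these names between 10466663 and 10518279. Another 10 of the 82 annotated hairpins lie on other chromosomes. Of the 71 hairpin names in the cluster's annotations 70 were matched to this annotation, and 63 of them were in the intron.

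Reads that fit the intron alone made up 92.3% and 97.0% of the cluster's reads in the control libraries and 95.6% and 92.1% in the Mdd libraries. Reads that fit hairpins elsewhere alone took 7.66% and 1.82% against 3.14% and 7.89%. The groups overlapped in both, so the label of an Sfmbt2 intron cluster covers 8429 of 8839 reads, and most of the rest is described with miR-466q further on.

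The hairpins form an array. The 11 hairpins of mir-467a and mir-467b with reads lie from 14.9 to 41.8 kb into the intron, at steps of 2.45 kb in the median (2.41 to 4.88 kb). After 12 of the 14 miR-467 hairpins the next hairpin with reads was a miR-466 and the one after it a miR-669. The hairpins of mir-467e, at chr2:10505721-10505807, and mir-467d, at chr2:10507630-10507714, follow the array. Those of mir-297c, at chr2:10509016-10509113, and mir-669o, at chr2:10514300-10514395, lie further downstream, and that of mir-467c, at chr2:10473931-10474027, stands before the first mir-467a.

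**Figure D1:**
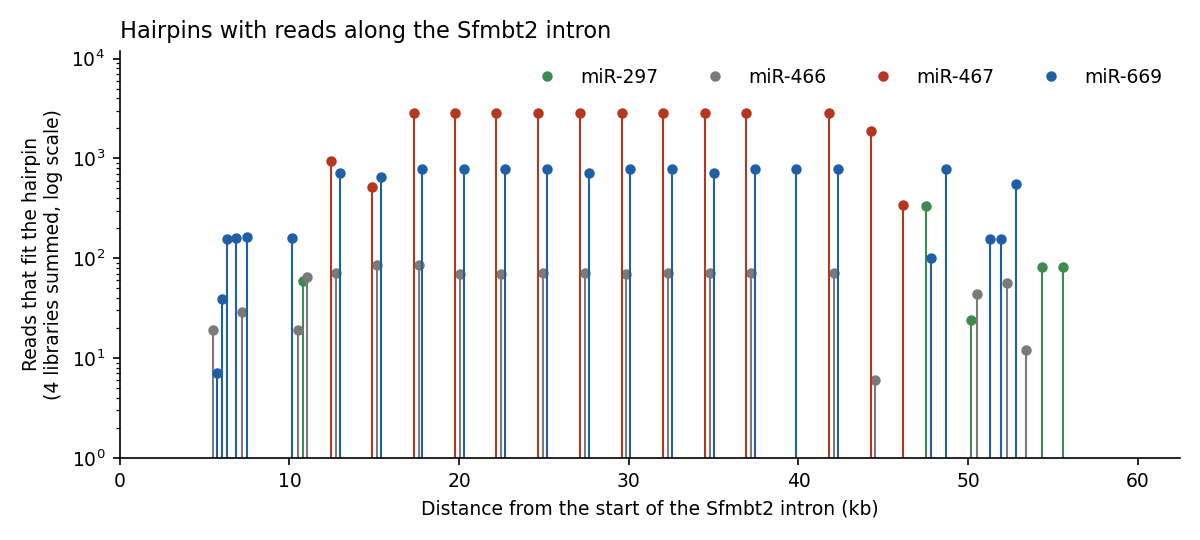
Each line is 1 of the 63 hairpins in the Sfmbt2 intron that a read fits; the x axis is the distance from the start of the intron in kb, the y axis (log scale) the reads of all 4 libraries that fit the hairpin, and colour the family. A read that fits several hairpins is counted at each, which gives the level row of miR-467 points at 2829 to 2866 reads.

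The files held 12845403, 22948488, 24031479 and 24112532 reads. Reads of 15 to 17 nt, left out of the main comparisons, were 24.4% and 26.95% of these in the controls and 1.18% and 1.27% in the Mdd libraries. miRNA reads of 18 nt or longer numbered 71902, 263748, 198947 and 94011, of which 966, 3850, 2705 and 1318 were of the cluster. Levels below are CPM, reads scaled to the library's miRNA reads, counted in units of 1e6, and depth sets their precision: 3 reads, the limit that a count of 0 allows, are worth 41.7, 11.4, 15.1 and 31.9 CPM. The number of distinct sequences had a minimum at 2, 3, 11 and 4 copies and a peak at 6, 10, 39 and 8 copies. Reads are therefore not independent molecules, and intervals and limits cover counting error only. Control replicate 2 stood apart in the striated muscle miRNAs miR-1a, miR-133 and miR-206, at 6.57% of miRNA reads against 0.0989% to 0.388% in the other 3, while the germ cell miRNAs miR-34b, miR-34c and miR-449 were at 10.3% there against 21.1% to 25.7%. The same library was low in blood miRNAs, at 0.655% against 4.70% to 5.99%, and high in the endothelial miR-126, at 1.33% against 0.0872% to 0.409%. Their part in the values of the cluster was not tested, and values without this library are given beside the estimates it moves most.

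As a whole, the cluster took nearly the same share of miRNA reads in every library, while its members did not. The share was 1.34% (95% Wilson interval 1.26% to 1.43%) and 1.46% (1.41% to 1.51%) in the controls and 1.36% (1.31% to 1.41%) and 1.40% (1.33% to 1.48%) in the Mdd libraries. The groups overlapped, with means of 1.40% ± 0.0822 and 1.38% ± 0.0299 (SD, n = 2 each) and a difference of -0.0208 percentage points (exact permutation test, two-sided, p = 1). With 2 against 2 libraries this test cannot go below 0.333. Without control replicate 2 the difference was 0.0373 points, and without Mdd replicate 1 it was 0.000353 points. As a share of all reads of 18 nt or longer the cluster was at 0.00995% and 0.0230% against 0.0114% and 0.00554%, following the miRNA content of the libraries, which was 0.741% and 1.57% against 0.838% and 0.395%. In bulk RNA, fewer cells of a type and less RNA per cell cannot be told apart.

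Between the lowest and the highest library the summed CPM differed 1.09-fold. For the 14 labels found in all 4 libraries the same ratio ran from 1.65 for miR-467a/miR-467b to 61.4 for miR-669o, with a median of 5.77. A sum over many labels can vary less than its members from counting alone, and miR-669o had only 3 reads in Mdd replicate 2. The part of counting in this contrast was not tested. The X-linked testis cluster, a germ cell miRNA array, took 11.3%, 6.18%, 12.1% and 7.17% of miRNA reads, a 1.95-fold range. The imprinted Dlk1-Dio3 cluster, another long miRNA array, took 1.73%, 1.998%, 1.99% and 2.67%, a 1.54-fold range. The cluster was below both in 4 of 4 libraries (exact paired permutation test over libraries, two-sided, p = 0.125 for each, the smallest that 4 pairs allow). The difference between these ranges was not tested.

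**Figure D2:**
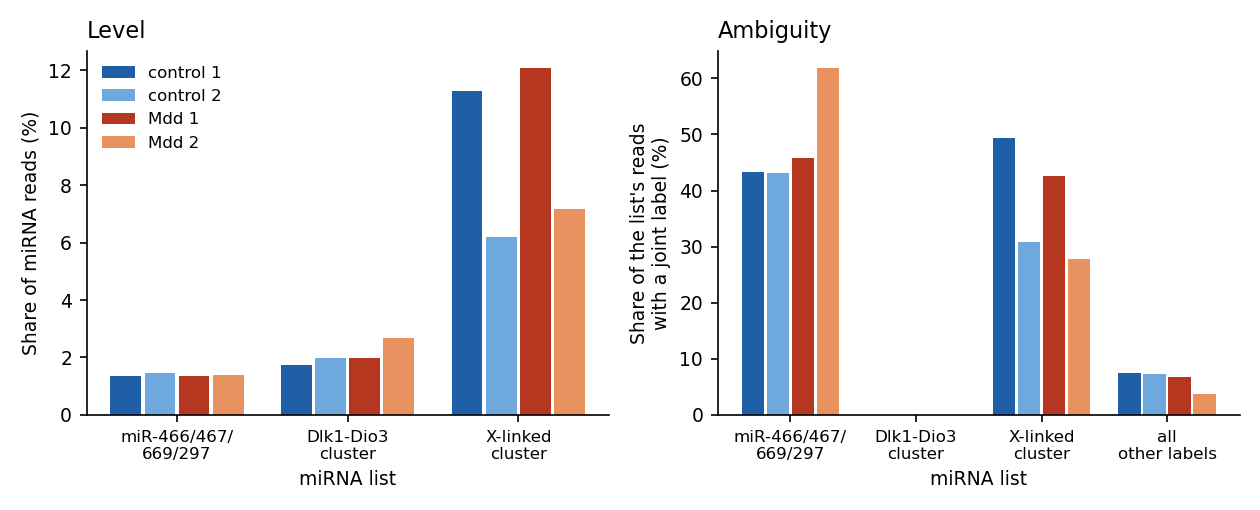
Left, share of miRNA reads (%) of the 4 Sfmbt2-type families, the Dlk1-Dio3 cluster and the X-linked cluster, and right, share of each list's reads (%) with a joint label, with all other miRNA labels as background; each bar is 1 library. The Sfmbt2-type bars stand between 1.34% and 1.46% on the left and between 43.1% and 61.8% on the right, where the Dlk1-Dio3 cluster has none.

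The miR-467 family made up most of the cluster in every library, with 71.2% and 73.1% of its reads in the controls and 55.3% and 74.2% in the Mdd libraries. The miR-669 family took 14.7% and 17.7% against 34.0% and 11.5%. Mdd replicate 1 was lowest for miR-467 and highest for miR-669, and Mdd replicate 2 lay at the other end of both. miR-466 took 9.42% and 6.31% against 3.44% and 11.0%, and miR-297 took 4.66% and 2.70% against 7.25% and 3.34%, so the groups overlapped for all 4 families.

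Few sequences carried most reads. The 17 sequences found in all 4 libraries held 73.4% of the reads, and the 60 found in 1 library held 9.79%. Of the labels, 14 were found in all 4 libraries, with 95.03% of the reads, and 12 in 1 library. The 5 most read sequences of a library gave 50.1%, 51.7%, 56.8% and 51.6% of its cluster reads. Most reads had the length of a mature miRNA, with 86.0%, 93.0%, 91.5% and 89.1% at 21 to 23 nt.

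**Figure D3:**
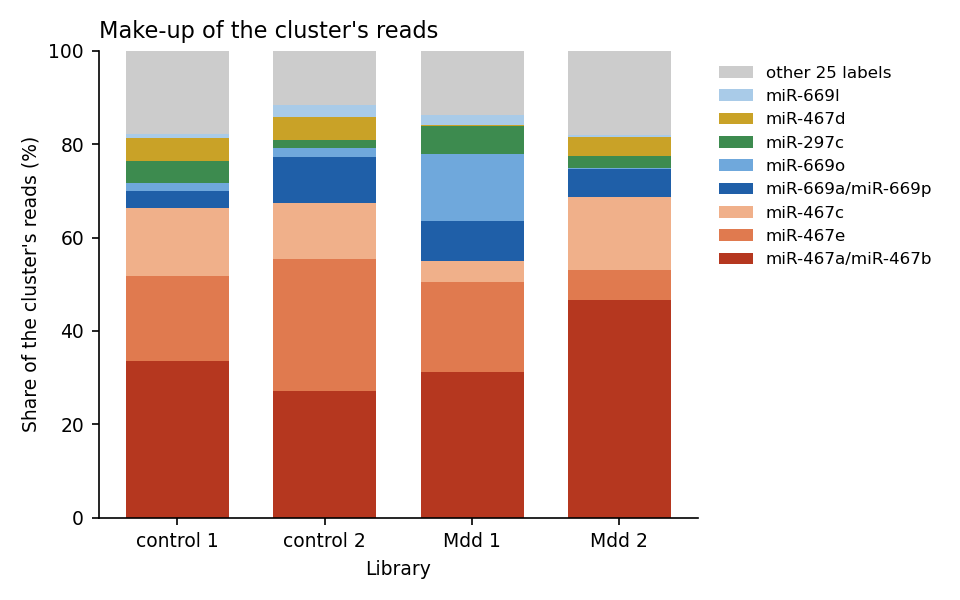
Share of the cluster's reads (%) in each of the 4 libraries taken by the 8 labels with the most reads, stacked, with the other 25 labels in grey. miR-467a/miR-467b, miR-467e and miR-467c fill the lower part of each bar, miR-669o is widest in Mdd replicate 1 and miR-467a/miR-467b is widest in Mdd replicate 2.

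miR-467a/miR-467b was the most abundant label, with 324 and 1046 reads in the controls and 843 and 616 in the Mdd libraries. This was 4506 and 3966 CPM against 4237 and 6552 CPM, with Mdd replicate 2 highest and the groups overlapping. By mean CPM it ranked 47 of 389 miRNA labels. miR-467e followed in rank 67 with 2448 and 4137 CPM against 2624 and 894 CPM, lowest in Mdd replicate 2. miR-467c, in rank 80, was at 1947 and 1752 CPM against 628 and 2191 CPM, lowest in Mdd replicate 1. miR-467e lay above miR-467a/miR-467b in control replicate 2, and miR-467c lay above miR-467e in Mdd replicate 2, so neighbours in the order by mean did not differ beyond the spread between libraries. miR-467c was below miR-467a/miR-467b in all 4.

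miR-467d, whose hairpin lies beside that of miR-467e, was at 668 and 739 CPM in the controls and at 25.1 and 596 CPM in the Mdd libraries. Both Mdd libraries were below both controls. The low value rests on 5 reads in Mdd replicate 1, fewer than the 11 copies at which that library's copy numbers have their minimum. In the other 3 libraries it had 48, 195 and 56 reads.

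Among the miR-669 labels, miR-669a/miR-669p, which stands for up to 14 hairpins, was at 487 and 1414 CPM against 1146 and 819 CPM and did not separate the groups. miR-669o, from a single hairpin near the end of the array, had 17 and 75 reads in the controls and 390 and 3 in the Mdd libraries. That was 236 and 284 CPM against 1960 and 31.9 CPM, so the 2 Mdd libraries held both the highest and the lowest value. miR-669d had 167 and 212 CPM against 437 and 63.8 CPM, again with the Mdd libraries on either side of the controls.

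miR-669b/miR-669m was at 195 and 155 CPM in the controls and 332 and 362 CPM in the Mdd libraries, with both Mdd libraries above both controls. miR-669c was at 528 and 60.7 CPM against 211 and 53.2 CPM, highest in control replicate 1. miR-297c, the most read miR-297 label, was at 626 and 243 CPM against 819 and 362 CPM. The groups overlapped for miR-669c and miR-297c.

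Both miR-669e and miR-669a/miR-669o were at or near 0 in 1 group. The label miR-669e had 18 and 21 reads in the controls and none in either Mdd library, or 250 and 79.6 CPM against 0. Its mean control level was at least 7.02-fold above the limit that 3 counts per Mdd library set. With that limit multiplied by the 39 and 8 copies of those libraries it was 422 CPM, above the control mean of 165 CPM, and gave no bound. miR-669a/miR-669o, the 3p strand, had 0 and 1 reads in the controls and 49 and 17 in the Mdd libraries. Pooled within groups its share of miRNA reads was 75.6 times higher in Mdd (exact 95% counting interval 13.1 to 3031, from 66 reads against 1). This interval treats reads as independent, which they are not, and leaves out the spread between libraries. It is no measure of a difference between groups. With the limit of 3 counts multiplied by the 6 and 10 copies of the control libraries it was 250 and 114 CPM (mean 182 CPM). The Mdd libraries were at 246 and 181 CPM (mean 214 CPM). The limit of control replicate 1 lay above both Mdd values, so its count of 0 gave no bound. In Mdd replicate 1, 45 of the 49 reads were of a single sequence, in a library with a peak at 39 copies.

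**Figure D4:**
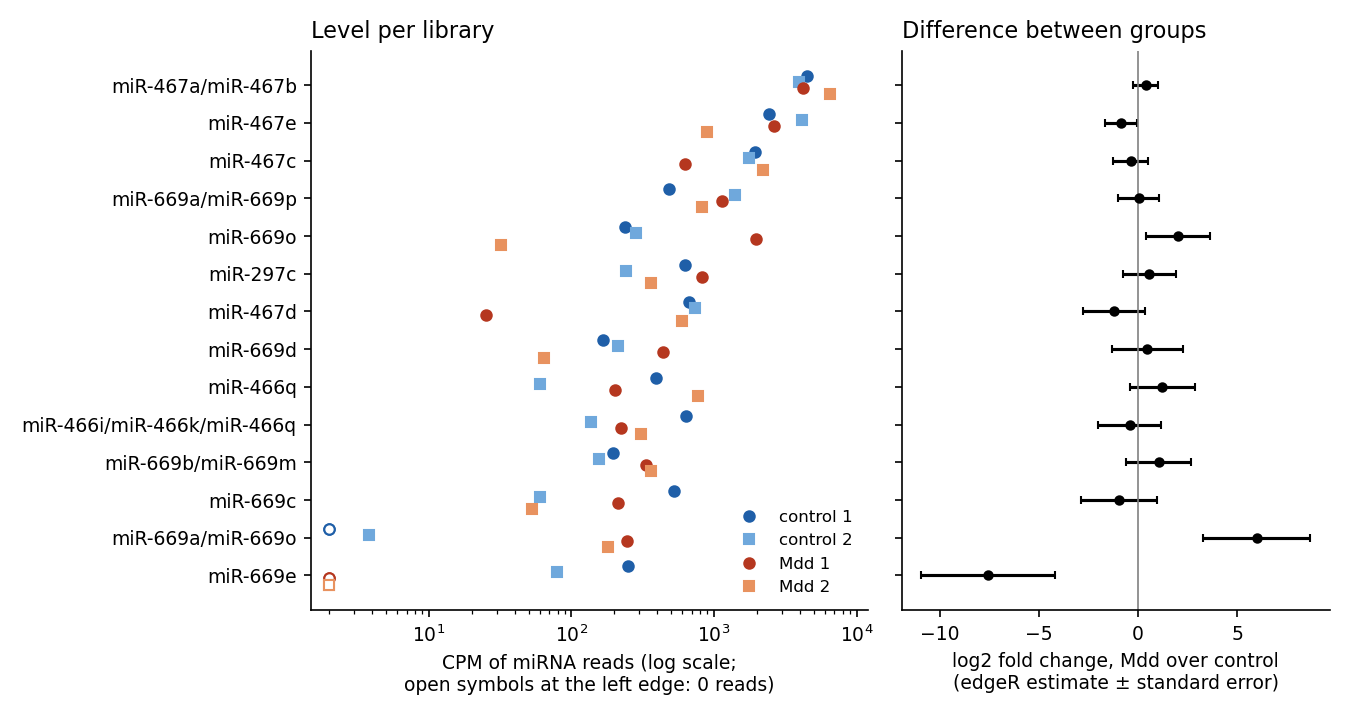
Left, CPM of the 14 named labels in each library on a log axis (blue, controls; red and orange, Mdd; open symbols at the left edge, 0 reads), and right, the edgeR log2 fold change of Mdd over control ± standard error. The 4 symbols of miR-467a/miR-467b lie closest together, those of miR-669o and miR-467d are spread widely, and the 2 labels at the bottom, miR-669a/miR-669o and miR-669e, stand apart with errors of 2.70 and 3.36.

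No label of the cluster passed the test between groups. Across all 236 miRNA labels that could be tested, edgeR's quasi-likelihood test with Benjamini-Hochberg adjustment called 0% at 0.05, and its lowest adjusted p was 0.158. It took 19 of the 33 labels of the cluster, with 8667 reads. The other 14 had 172 reads in total and at most 44 each, and 12 of them were found in 1 library. Of the 19 tested, 10 had a positive and 9 a negative estimate. Their median log2 fold change was 0.04, against -0.04 over all labels tested.

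At an unadjusted p under 0.05 edgeR called 4.66% of all labels and none of the 19. DESeq2 called 2.97% of all labels after adjustment and again none of the 19, and at its unadjusted p 8.05% of all labels and 2 of the 19, miR-669a/miR-669o and miR-669e. Both Mdd libraries were above both controls for 16.5% of all labels tested and for 2 of the 19, miR-669a/miR-669o and miR-669b/miR-669m. They were below both controls for 21.6% of all labels and for 2 of the 19, miR-669e and miR-467d. With 19 labels these counts are too small to set the cluster apart from the background.

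By edgeR's quasi-likelihood test the log2 fold change was 5.98 (SE 2.70) for miR-669a/miR-669o and -7.57 (SE 3.36) for miR-669e, each with an adjusted p of 0.775. Without control replicate 2 the value of miR-669a/miR-669o was 7.73. These fitted values depend on the prior count and set no bound. miR-669o had an estimate of 2.02 (SE 1.63, edgeR adjusted p = 0.952). Without Mdd replicate 1 it was -3.05, and without Mdd replicate 2 it was 3.11, with an adjusted p of 0.0635, the lowest for any named label under the alternatives tried.

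The miR-467 family held the most reads. miR-467a/miR-467b was at 0.38 (SE 0.64), miR-467c at -0.38 (SE 0.88), miR-467e at -0.86 (SE 0.81) and miR-467d at -1.21 (SE 1.56). Their adjusted p by edgeR's quasi-likelihood test was 0.992. The value of miR-467d was -0.29 without Mdd replicate 1 and -4.57 without Mdd replicate 2. That of miR-467e was -1.96 and -0.13 in the same order, so different libraries set the 2 differences, and without control replicate 2 it was -0.31. miR-467c turned to 0.21 without Mdd replicate 1.

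The other named labels had the same edgeR adjusted p of 0.992, except miR-669a/miR-669p with an estimate of 0.04 (SE 1.03) and an adjusted p of 0.994. The estimates were 1.23 (SE 1.64) for miR-466q, 1.04 (SE 1.63) for miR-669b/miR-669m and 0.57 (SE 1.33) for miR-297c. Those of miR-669d, miR-669c and miR-466i/miR-466k/miR-466q were 0.47, -0.95 and -0.43, with SE of 1.80, 1.92 and 1.59. That of miR-466q was 0.42 without control replicate 2, 0.07 without Mdd replicate 2 and 2.85 without control replicate 1. Without control replicate 2 the estimates were 0.08 for miR-297c, 1.16 for miR-669a/miR-669p, -1.81 for miR-669c and -1.14 for miR-466i/miR-466k/miR-466q. With 1 library left out miR-669b/miR-669m lay between 0.96 and 1.13, and with all reads as library size it was 0.11. Scaling to all reads of 18 nt or longer, in place of miRNA reads, moved the median of all labels to -1.10 and that of the cluster to -1.01. On that scale 4 of the 19 estimates were positive and 15 negative, and none passed.

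Nearly all of the cluster's reads came from the 5p strand. Placed on the GENCODE hairpins, 80 sequences with 8428 reads (95.4%) lay in the 5p side and 15 sequences with 167 reads (1.89%) in the 3p side. A further 50 reads were placed differently in different hairpins, by arm or by fitting several places in some of them. Another 194 reads fit several places within each hairpin they matched. The 5p reads were 898, 3756, 2580 and 1194, and the 3p reads 0, 47, 59 and 61.

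Of the reads with an arm, 5p was 100% (898 of 898) and 98.8% in the controls and 97.8% and 95.1% in the Mdd libraries. The groups did not overlap, with means of 99.4% ± 0.874 and 96.5% ± 1.86 (SD, n = 2 each) and a difference of -2.93 percentage points (exact permutation test, two-sided, p = 0.333). For control replicate 1 the 95% Wilson interval of the 5p share starts at 99.6%, from counting error only. Multiplied by the 6 copies of that library, the limit of 3 counts is 18 reads, against its 898 reads with an arm. Without Mdd replicate 2 the difference was -1.62 points, and without Mdd replicate 1 it was -4.24 points. The 3p reads belonged to 11 labels. miR-669a/miR-669o gave 67 of the 167, with 0 and 1 in the controls and 49 and 17 in the Mdd libraries. It gave 49 of the 59 3p reads of Mdd replicate 1. The place of that library below control replicate 2 in the 5p share therefore rests on this label. miR-467a/miR-467d, the 3p strand of the miR-467a hairpins, gave 37 of the 167, with 21 reads in control replicate 2 and 16 in Mdd replicate 2.

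The 5p reads of miR-467 began at 2 neighbouring bases. In the inner start the first base is the T before AAGTG, and in the outer start the read is 1 base longer at its 5′ end, which turns the seed AAGTGTG of miR-467e into TAAGTGT. miR-467a/miR-467b kept to the inner start, with 86.4%, 89.2%, 89.7% and 89.4% of its reads. Its outer start took 9.58% of all its reads, and a start 1 base further in took 1.34%.

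miR-467c used the inner start for 78.6%, 66.0%, 88.8% and 64.6% of its reads. For miR-467d it was 70.8%, 29.7%, 80.0% and 75.0%, lowest in control replicate 2, and the Mdd replicate 1 value rests on 5 reads. Over the 4 libraries the outer start was the more frequent for miR-467d, with 54.6% of its reads, and for miR-467e, with 62.2%. The inner start of miR-467e took 30.7% and 32.2% in the controls and 51.0% and 44.0% in the Mdd libraries, and both Mdd libraries were above both controls. They were also above both controls for miR-467d and, narrowly, for miR-467a/miR-467b, while the groups overlapped for miR-467c.

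Over the 4 labels together the inner start took 69.5% and 58.9% of reads in the controls and 76.1% and 79.3% in the Mdd libraries. This sum also moves with how much miR-467e, the label with the most outer starts, each library held. These start shares were picked out after the values were seen and were not tested between groups. Start shares of other miRNAs were not computed, so the labels whose groups did not overlap have no background to stand against. miR-669o likewise had 2 starts 1 base apart, the outer with 61.0% of its reads (52.9%, 82.7%, 56.9% and 100%, the last on 3 reads). miR-669a/miR-669p kept 93.1% of its reads at 1 start.

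**Figure D5:**
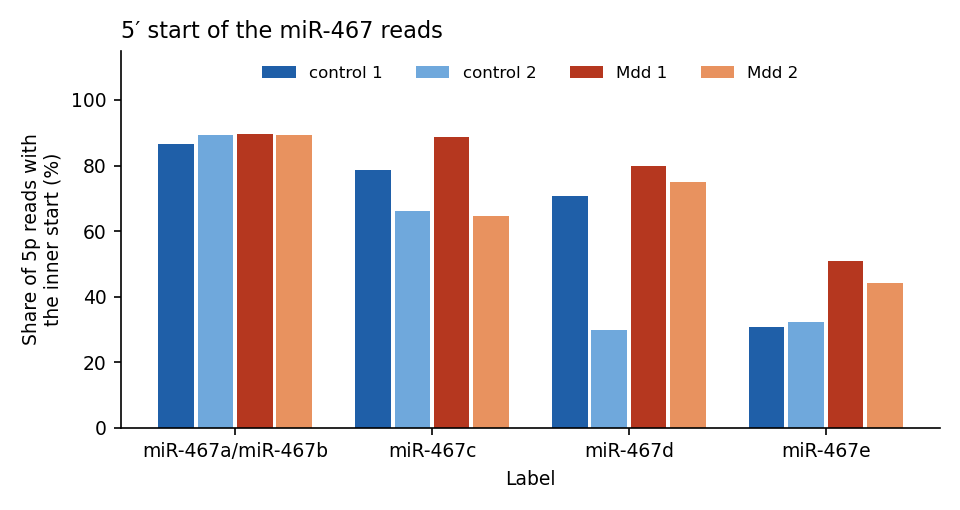
Share (%) of the 5p reads of 4 miR-467 labels that begin at the inner start, the one whose seed begins AAGTG; each bar is 1 library, controls in blue and Mdd in red and orange. miR-467a/miR-467b stands between 86.4% and 89.7% in all 4 libraries, and the 2 Mdd bars of miR-467e, at 51.0% and 44.0%, are above its control bars. The same holds for miR-467d, which has 5 reads in Mdd replicate 1, and, narrowly, for miR-467a/miR-467b, but not for miR-467c.

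Through these starts a few seeds took most of the cluster. AAGTGCC, from the inner start of miR-467a/miR-467b, was the seed of 29.0% and 24.2% of cluster reads in the controls and 27.9% and 41.8% in the Mdd libraries. In the RefSeq table it is also the seed of miR-290a-3p, of a family abundant in early embryos and embryonic stem cells. Bases 2 to 7 alone, AAGTGC, are shared with miR-291a-3p, miR-291b-3p, miR-294-3p, miR-295-3p, miR-302b-3p, miR-302d-3p and miR-350-5p as well. The RefSeq table used here held 5 of the cluster's 33 names, so these lists of shared seeds may be incomplete. miR-467c and miR-467d, with the seed AAGTGCG, have the same bases 2 to 7, and they gave 14.9% and 9.43% against 4.25% and 13.3%.

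TAAGTGT, the outer start of miR-467e and in RefSeq the seed of miR-467h and miR-668-5p, was at 12.6% and 19.2% of cluster reads in the controls and at 9.46% and 3.57% in the Mdd libraries. Both Mdd libraries were below both controls (exact permutation test, two-sided, p = 0.333, the smallest that 2 against 2 libraries allow). The most read seeds were all compared in this way. Apart from TAAGTGT, only GTTTTGT of miR-669b/miR-669m had groups that did not overlap, with Mdd higher. It was at 1.45% and 1.06% against 2.44% and 2.58%. Over all miRNA labels tested, by CPM, the groups did not overlap for 16.5% with Mdd higher and for 21.6% with Mdd lower. No such share was taken over the seeds of all miRNAs, so these 2 seeds are not set apart from the background. GTTGTGT, shared by miR-669a/miR-669p, miR-669f, miR-669l and the inner start of miR-669o, was at 5.28% and 11.6% against 16.6% and 5.16%, with overlapping groups.

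About as many reads fit several hairpins as fit 1. A single hairpin accounted for 4407 reads (49.9%). The largest other class, with 2416 reads (27.3%), fit 10 hairpins, and 657 reads (7.43%) fit 14. The most read sequence, of miR-467a/miR-467b, fit 10 hairpins, and that of miR-669a/miR-669p fit 14, so these values cannot be assigned to a hairpin. miR-467c, miR-467e, miR-669o and miR-297c each rest on sequences of 1 hairpin in this annotation.

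Reads that fit 2 or more hairpins made up 46.4% and 46.5% of the cluster in the controls and 50.2% and 63.3% in the Mdd libraries. Reads with a joint label were at 43.4% and 43.1% against 45.8% and 61.8%. The groups did not overlap, with means of 43.2% ± 0.201 and 53.8% ± 11.4 (SD, n = 2 each) and a difference of 10.6 percentage points (exact permutation test, two-sided, p = 0.333). Without Mdd replicate 2 the difference was 2.53 points, and without Mdd replicate 1 it was 18.6 points. In Mdd replicate 2, miR-467a/miR-467b alone gave 46.7% of cluster reads, against 27.2% to 33.5% in the other 3 libraries.

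All other miRNA labels had a joint label in 7.39%, 7.22%, 6.74% and 3.72% of their reads. The cluster was higher in 4 of 4 libraries (exact paired permutation test, two-sided, p = 0.125). Joint labels are set by the hairpin copies in the annotation, the same for every library, so this test adds nothing to the values. Against the X-linked cluster, whose members also have close copies, it was higher in 3 of 4 libraries (49.3%, 30.8%, 42.6% and 27.8% there, p = 0.375 by the same exact test). The Dlk1-Dio3 cluster had no read with a joint label.

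The miR-466 labels held the reads that are least like the rest. Of their sequences, 18 with 278 reads are runs of TG and nothing else, under the labels miR-466q and miR-466i/miR-466k/miR-466q. They took 7.66% and 1.35% of cluster reads in the controls and 3.11% and 5.16% in the Mdd libraries, with overlapping groups. miR-466q, annotated on chromosome 3 outside the Sfmbt2 intron, had 28 and 16 reads against 40 and 73, or 389 and 60.7 CPM against 201.1 and 777 CPM.

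miR-466i/miR-466k/miR-466q had 46 and 36 reads against 44 and 29, or 640 and 136 CPM against 221 and 308 CPM, with overlapping groups. Of the miR-466 labels of the intron, miR-466c was found in all 4 libraries, with 17, 32, 2 and 13 reads. miR-466b/miR-466e/miR-466o had 50 reads in control replicate 2 and 15 in Mdd replicate 2 and none in the other libraries. The remaining miR-466 labels had at most 44 reads, a number reached by miR-466d/miR-466n in control replicate 2 alone.

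Some sequences of the cluster were found at very low copy. At or below each library's minimum of 2, 3, 11 and 4 copies lay 2 of 37, 10 of 69, 28 of 51 and 18 of 60 sequences of the cluster, with 2, 12, 49 and 36 reads. Of the 28 in Mdd replicate 1, 21 were also found in another library. Their part in the values of single labels was not tested.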

How the data were processed

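Small RNA of 2 control and 2 Mdd libraries was analysed from the authors' tables. Per the file headers, each deposited table gives distinct read sequences with a raw read count, a length, a genome match and an annotation. Per the submitters' processing notes, DESeq2 and mm9 were used, in an unstated role. The aligner and the trimming tool, not given in the sources used here, are unnamed. Tables were joined by sequence, taking the annotation of the first library that gave one, and reads of 18 nt or longer were summed per label. The members, lists and tests were chosen with earlier results of these data known. Labels are named by a rule: up to 12 tested labels of highest mean CPM, any past the threshold and the 3 of lowest p in each direction. Arms had been planned by mature miRNAs of the RefSeq table. Of 33 names 5 were in it, so arms were set by exact position in GENCODE M21 hairpins, 5p for the first part of the hairpin and 3p for the second.

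Counts were tested over all labels with edgeR 4.0.16 (quasi-likelihood, TMM, filterByExpr, two-sided, Benjamini-Hochberg, threshold 0.05) in R 4.3.3, after a check of the script on simulated data. SE is log2 fold change over the square root of the F statistic. Shares were compared by exact two-sided permutation over libraries with scipy 1.17.1. Alternatives were RLE scaling, all reads as library size, DESeq2 1.42.0, no filter, all lengths from 15 nt, annotation as deposited in each table, the replicate number as a block, each library left out and, chosen after seeing the data, miRNA reads as library size. Read shares have 95% Wilson intervals. Same-numbered libraries did not deviate together (r = -0.03 over 236 labels). This rests on a single difference within each group and cannot show whether the numbers pair the libraries. No sequence of the cluster had another label in another table, and all matched the genome per the deposited mark. One sequence with 1 read that also carried a name outside the families was left out.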

Additional observations from a re-analysis of the deposited data

How the results depend on the processing

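No label of the cluster passed the threshold under any alternative run, with edgeR or DESeq2. Over all miRNA labels, where edgeR called 0, 5 were called with all reads as library size, 7 with DESeq2, 6 without a filter, 1 with all lengths and 4 with the replicate block, and 0 to 16 with 1 library left out. Those counts were 7 without control replicate 1, 0 without control replicate 2, 5 without Mdd replicate 1 and 16 without Mdd replicate 2. The r of same-numbered deviations was -0.03 over all labels and 0.08 over the cluster, and the replicate block changed no call in the cluster. Of 168 values for the 14 named labels 155 kept their direction and 13 turned, none of them past the threshold in either form, and 6 labels never turned. With all reads as library size miR-467a/miR-467b went to -0.64, miR-669a/miR-669p to -1.01, miR-297c to -0.027 and miR-669d to -0.23. With the replicate block miR-669d went to -0.10. Leaving out 1 library in turn gave -0.62 to 1.16 for miR-669a/miR-669p, -1.35 to 0.21 for miR-467c, -3.05 to 3.11 for miR-669o, -0.23 to 1.21 for miR-297c, -1.62 to 1.40 for miR-669d, -1.14 to 0.84 for miR-466i/miR-466k/miR-466q, -2.35 to 1.06 for miR-669c and, without a turn, 0.07 to 2.85 for miR-466q, -4.57 to -0.29 for miR-467d and -1.96 to -0.13 for miR-467e. The lone library left in a group is then assumed to vary like the other group. For the summed share, whose difference was -0.0208 points, all lengths gave 0.0444 points and leaving out a library -0.0789 to 0.0373 points, all within the spread between replicates. The cause of these turns was not tested. Without 1 library the 5p share differed by -4.24 to -1.62 points and the joint-label share by 2.53 to 18.6 points, and since the groups do not overlap, leaving out a library could not turn either. The other alternatives hardly changed the reads that enter both shares. Depth limits the rest: 14 labels had too few reads to test.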

Other observations

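Reads of 15 to 17 nt with the cluster's names were outside the comparisons. Control replicate 1 held 47 and control replicate 2 held 53, of 7 sequences each, and the Mdd libraries held 0. Reads of this length made up 24.4% and 26.95% of everything sequenced in the controls, against 1.18% and 1.27% in Mdd. Among miRNA reads alone they were 11.1% and 8.06%, against 2.25% and 2.12%, so the groups differ in short reads as a whole. This difference in length splits with the groups and cannot be told apart from the treatment in any comparison above. Its part in the values of the cluster was not tested.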
